A study of Mus musculus with 58 samples.

Results

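The receptors that take up apolipoprotein E (APOE) in the brain, their sortilin-type partners and their chaperone were examined as a set of 9 genes out of the 31246 listed in each of 2 tables of cortical RNA-sequencing. The genes were taken by name as *Lrp1*, *Lrp1b*, *Lrp2*, *Lrp4*, *Lrp8*, *Vldlr*, *Sorl1*, *Sort1* and *Lrpap1*, and all 9 were found in both tables. The libraries were made from tissue of primary visual cortex (PVC) and entorhinal cortex (EC), taken from male *APOE* targeted replacement mice on a C57Bl/6 background, aged 14 to 15 months, in which human *APOE* is expressed from the mouse promoter in every animal. In each region 10 *APOE3/3* and 19 *APOE3/4* mice were sequenced, for 58 libraries in all, and the same 29 animal numbers occur in both regions. Mice of the study came from separate colonies, and the labels do not tie an animal to a colony.

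The values are the authors' mean normalized counts, 1 per gene and region, averaged over all 29 libraries of a region with both genotypes together. Values of single mice, and with them the spread between mice, were not used here, so the results describe levels and differences between regions without error, interval or test, and no difference between genotypes is given. The counts of a region were normalized on their own, so a difference between regions was set on a common scale by the median ratio of 15642 genes at a mean of at least 10 in both regions, which divides the PVC values by 0.539. The means summed to 49385488 for the EC and 27058393 for the PVC, 1.83 times as much for the EC, and with size factors around the typical library this sum follows the depth of a region's libraries. In bulk tissue, fewer cells of a type and less RNA per cell cannot be told apart.

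The LDL receptor family consists of membrane proteins that bind lipoproteins and many other ligands through repeated extracellular modules and carry them into endosomes. APOE is the main apolipoprotein that astrocytes release, and neurons take up APOE-bearing lipid through several of these receptors. *Lrp1* encodes a large endocytic receptor of neurons, glia and vascular cells, and *Lrp1b* its close homolog. *Lrp8* (ApoER2) and *Vldlr* encode the receptors through which Reelin acts on neurons by way of the adaptor Dab1. *Lrp4* encodes the agrin receptor of the neuromuscular junction, and *Lrp2* (megalin) an endocytic receptor of absorptive epithelia. *Sorl1* and *Sort1* encode sorting receptors with a Vps10 domain, which move cargo between the Golgi and endosomes, and *Sorl1* is a known risk gene for Alzheimer's disease that binds the amyloid precursor protein. *Lrpap1* (RAP) encodes a chaperone of the endoplasmic reticulum that keeps newly made receptors from binding ligands too early.

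The receptors share an NPxY signal in the part of the protein that lies in the cytoplasm, where adaptors for endocytosis and signaling bind. The coding sequences of the NCBIM37 annotation were searched in frame, on the coding strand, for the 4 codons of this signal, and the distal site of each receptor is shown because it separates the family members from the sorting receptors. The capitals mark the 4 codons, and in *Lrpap1* the last 4 codons before the stop, which encode its retention signal for the endoplasmic reticulum. The stretch printed for *Lrp2*, flanking bases included, crosses an intron in the genome.
*Lrp1* (chr10:126976111-126976140, minus strand): aacttcaccAACCCAGTGTATgccacgctc
*Lrp1b* (chr2:40452559-40452588, minus strand): aattactccAACCCAGTATATgcaaaatta
*Lrp2* (chr2:69263858-69264054, minus strand): aacttcgaaAATCCAATCTATgcagagatg
*Lrp4* (chr2:91348669-91348698, plus strand): acctatagcAACCCCTCCTACcgaacttcc
*Lrp8* (chr4:107541657-107541686, plus strand): aatttcgacAACCCAGTGTACaggaaaacg
*Vldlr* (chr19:27322421-27322450, plus strand): aactttgacAATCCTGTGTACttgaagacc
*Lrpap1* (chr5:35435973-35435996, minus strand): agggctcggCACAATGAGCTCtga

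All 6 LDL receptor family members hold such codons among their last 250 codons, 2 sites each in *Lrp1*, *Lrp1b* and *Lrp2* and 1 each in *Lrp4*, *Lrp8* and *Vldlr*. In *Lrp1* the sites lie 71 and 37 codons before the end, and in *Lrp1b* 104 and 37 codons before it. *Sorl1*, *Sort1* and *Lrpap1* hold none anywhere in frame. Of 21370 gene symbols with a complete coding sequence, 1.61% hold the codons among the last 250. A match is a description of the letters and not a test of binding.

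The genes differ greatly in size, and the length of an mRNA, beside its abundance, affects how many reads it gives. *Lrp1b*, on chromosome 2 from 40450768 to 42509118, spans 2058 kb, whereas *Lrpap1*, on chromosome 5 from 35434139 to 35448415, spans 14.3 kb. *Lrp1* lies on chromosome 10 from 126975217 to 127058204 and *Sorl1* on chromosome 9 from 41772803 to 41932380. The merged exons run from 4.13 kb in *Lrpap1* to 23.1 kb in *Lrp1b*, with 17.7 kb in *Lrp1*, 11.3 kb in *Sorl1* and 7.56 kb in *Sort1*. The remaining 4 receptors have between 10.1 kb in *Vldlr* and 16.7 kb in *Lrp2*. Exons of *Sorl1* and *Sort1* overlap a noncoding transcript of the other strand over 1.63% and 4.35% of their length, whose reads cannot be told apart without strand, and those of the other 7 genes overlap no annotated exon of another gene.

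*Lrp1* gave the most reads of the set, with a mean normalized count of 43759 in EC and 22530 in PVC. *Sort1* followed with 34968 in EC and 18364 in PVC. *Sorl1* had 19486 and 13067, and the chaperone *Lrpap1* had 9820 and 4190. The Reelin receptors had lower and similar counts, 6585 and 3241 for *Lrp8* and 5522 and 2565 for *Vldlr*. *Lrp1b* had 2865 and 1899, and *Lrp4* had 2589 and 1149. *Lrp2* had by far the fewest reads of the set, with 13.0 in EC and 4.32 in PVC.

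Levels of different genes were compared per kilobase of merged exon, within a region. On this scale *Sort1* stood first, with a mean normalized count of 4625 per kb in the EC, 1.87 times the 2470 per kb of *Lrp1*, and 1.91 times *Lrp1* in the PVC. *Lrpap1*, with 2380 per kb in the EC, moved up to the level of *Lrp1*, and *Sorl1* followed with 1721 per kb. A gap of 2.75-fold in the EC then separated *Sorl1* from *Lrp8* at 626 per kb, and *Vldlr* at 548 per kb was next. With the longest transcript as length the gap was smaller, with *Sorl1* at 1819 per kb and *Lrp8* at 994 per kb. *Lrp4* had 244 per kb and *Lrp1b* 124 per kb, while *Lrp2* had 0.781 per kb. *Lrp1* was therefore 19.9 times as high as its homolog *Lrp1b* in EC and 15.5 times in PVC. These levels are means without a spread, so it cannot be said which neighbours in the order differ beyond the variation between mice.

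**Figure D1:**
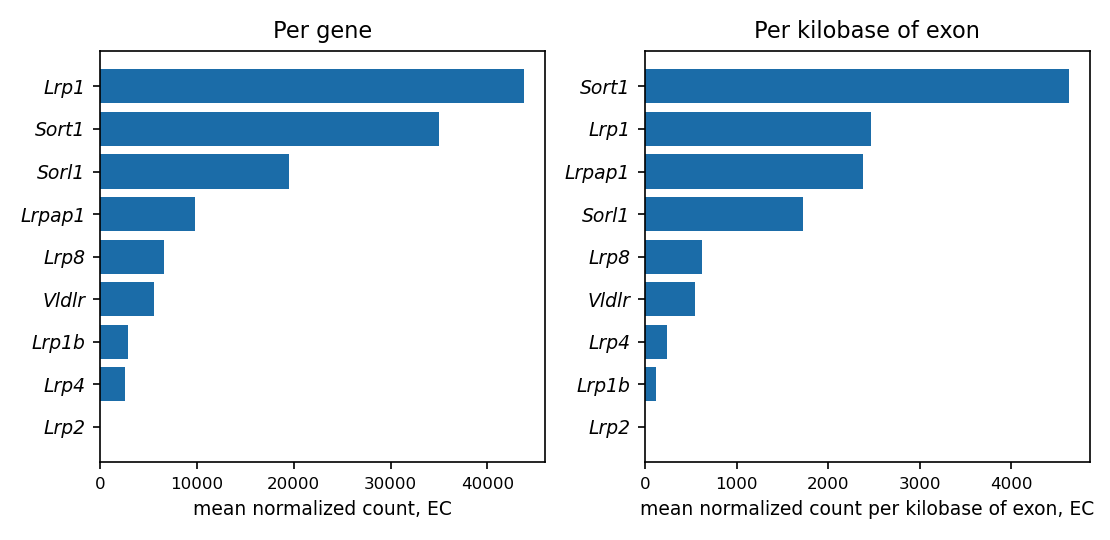
Mean normalized count in the EC of the 9 genes, per gene on the left and per kilobase of merged exon on the right, each panel in its own order. Bars are the authors' means over 29 libraries, with no error available, and *Lrp1* leads by count at 43759 whereas *Sort1* leads per kilobase at 4625.

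Set against all genes with a length and a mean of at least 10 in the region, 16072 in EC and 14997 in PVC, the set covered nearly the whole range. *Sort1* was at percentile 97.5 of the levels per kilobase in EC and 97.2 in PVC. *Lrp1* was at 93.8 and 92.8, *Lrpap1* at 93.5 and 90.5, and *Sorl1* at 90.4 and 91.8. None of these 4 genes was below percentile 90.4 in either region. *Lrp8* was at 71.8 and 66.9 and *Vldlr* at 68.5 and 61.7, whereas *Lrp4* was at 47.8 and 39.7 and *Lrp1b* at 34.6 and 34.2. *Lrp2* was at percentile 0.0187 in EC and under the minimum of 10 in PVC. The minimum is set on the count and the percentile on the level per kilobase. A long gene just above the minimum, as *Lrp2* is in EC, therefore falls at the bottom. These places depend on the genes they are set against. Among all genes with a length and a mean above 0, *Lrp4* was at 62.6 and 58.8, *Lrp1b* at 53.1 and 55.1, and *Lrp2* at 15.0 and 11.6.

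When the 6 LDL receptor family members were added up per kilobase, *Lrp1* made 61.5% of the sum in EC and 62.8% in PVC. *Lrp8* made 15.6% and 15.2%, and *Vldlr* 13.7% and 12.6%. *Lrp4* made 6.07% and 5.34%, and *Lrp1b* 3.09% and 4.06%. Within each region *Lrp8* was 1.14 times as high as *Vldlr* in EC and 1.21 times in PVC. With the longest transcript as length the 2 genes stood further apart, at 994 and 693 per kb in EC and 489 and 322 per kb in PVC. These ratios and shares thus depend on the length used. *Lrpap1* stood at 0.593 of the summed level of the 6 members in EC and 0.501 in PVC.

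**Figure D2:**
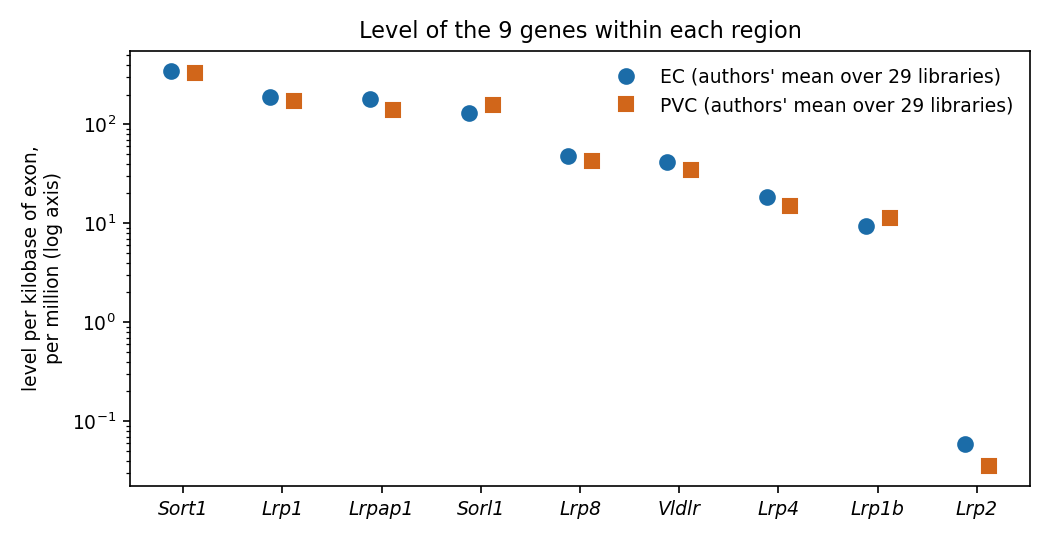
Level per kilobase of merged exon of the 9 genes in the EC (circles) and the PVC (squares), as a share in ppm of the summed level of all genes with a length, on a log axis. Each point is the authors' mean over 29 libraries and has no error; the values run from 349 for *Sort1* to 0.0590 for *Lrp2* in the EC, and *Sorl1* and *Lrp1b* are the genes whose PVC point lies above the EC point.

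The comparison of the EC with the PVC asks whether a region that is vulnerable in Alzheimer's disease carries other levels of these receptors than a region that is resistant. On the common scale, 0 of the 8 genes at a mean of at least 10 in both regions differed by more than 1.5-fold, against 12.2% of all 15642 genes compared, of which 5.38% were higher and 6.78% lower in the PVC. The median log2 ratio of PVC over EC was −0.10 over these 8 genes, where the scaling sets the median of all genes to 0. Without regard to direction, the median absolute log2 ratio was 0.25 for the 8 genes and 0.15 for all genes compared. With a limit of 1.2-fold, chosen after the values were seen, 4 of the 8 genes differed, 2 in each direction, against 31.4% of all genes. None of these shares has a test, and with 8 genes they describe the set only. A count of 0 of 8 does not mean that the set differs less than other genes.

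*Sorl1* and *Lrp1b* were the members that were higher in the PVC. *Sorl1* had a scaled mean of 24263 in the PVC against 19486 in the EC, a log2 ratio of 0.32 or 1.25-fold, which lies at the 88.7th percentile of all genes compared. *Lrp1b* had 3526 against 2865, a log2 ratio of 0.30 or 1.23-fold, at the 87.9th percentile.

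The other members were lower in the PVC or close to equal. *Lrpap1* was 1.26-fold higher in the EC, with 9820 against a scaled 7779 in the PVC, a log2 ratio of −0.34. *Lrp4* was 1.21-fold higher in the EC, with 2589 against a scaled 2133 and a log2 ratio of −0.28. *Vldlr* was 1.16-fold higher in the EC, with 5522 against a scaled 4762 and a log2 ratio of −0.21. The scaled means in the PVC were 6018 for *Lrp8*, 41835 for *Lrp1* and 34100 for *Sort1*. *Lrp8*, with a log2 ratio of −0.13, *Lrp1*, with −0.06, and *Sort1*, with −0.04, lay within the middle 50% of all genes compared, which ran from −0.16 to 0.14. The sign of each member was the same under every scaling tried. A scaling shifts all genes alike, here by −0.04 to 0.03 in log2, so a member further from 0 than this could not change sign.

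**Figure D3:**
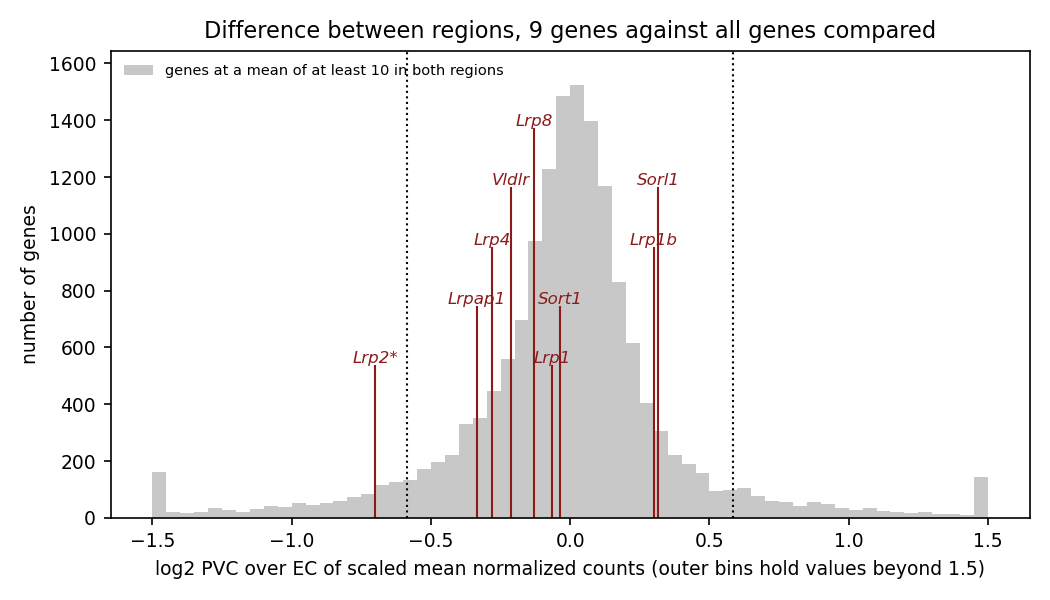
Number of genes by log2 ratio of PVC over EC, on means scaled by the median ratio, for 15642 genes at a mean of at least 10 in both regions (grey), with the 9 genes as red lines and 1.5-fold as dotted lines. *Sorl1* and *Lrp1b* lie to the right at 0.32 and 0.30, the other members at or left of −0.04, and the asterisk marks *Lrp2*, which is under the minimum in the PVC; the height of a red line has no meaning.

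Ratios between members within a region need no scaling between the tables. How they differ between the regions follows from the log2 ratios given above and adds no separate support. *Sorl1* stood at 0.697 of *Lrp1* per kilobase in EC and at 0.908 in PVC. Relative to *Sort1* it stood at 0.372 and 0.475, so *Sorl1* was higher in the PVC against both of the other abundant receptors. *Lrpap1* over *Lrp1* was 0.963 in EC and 0.798 in PVC. *Lrpap1* over *Sorl1* was 1.38 in EC and 0.880 in PVC, a 1.57-fold difference. They have the lowest and the highest log2 ratio of the 8 members compared, so no other pair of these differs more. The order of these 2 genes in the PVC depends on the length used, since with the longest transcript *Lrpap1* stood above *Sorl1* in both regions, at 1400 against 1219 per kb in PVC. *Lrp1b* over *Lrp4* was 0.509 and 0.760. *Sort1* over *Lrp1* differed by 1.02-fold between the regions.

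*Lrp2* had a log2 ratio of −0.70, 1.63-fold higher in the EC, but its mean of 4.32 in the PVC is under the minimum of 10, and among 24770 genes above 0 in both regions 26.3% were past 1.5-fold. Megalin is known from the epithelium of the choroid plexus, so the 12 choroid plexus markers were read beside it. All 12 were above 0, 8 reached the minimum, 1 of these was higher in the PVC past 1.5-fold and 3 were lower. *Ttr*, the transthyretin gene that defines this epithelium, was 4.53-fold higher in the PVC. *Kcnj13*, *Sostdc1* and *Prlr* were 2.74-fold, 2.24-fold and 1.61-fold higher in the EC. Among the markers under the minimum, *Otx2* and *Slc4a5* were 2.71-fold and 1.46-fold higher in the PVC. *Cldn2* and *Folr1*, also under it, were 1.53-fold and 1.07-fold higher in the EC. All 12 markers summed to 793 in the EC and to a scaled 1180 in the PVC. Without *Ttr*, a choice made after the values were seen, the other 11 summed to 638 and a scaled 478. The part of these markers in the value of *Lrp2* was not tested.

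Of 10 related receptors, 1 was past 1.5-fold, and it was *Sorcs1*, a sorting receptor related to *Sorl1* and *Sort1*. It was 1.69-fold higher in the PVC, with a scaled mean of 2723 against 1614. The median log2 ratio of the 10 was −0.02. The highest of the 10 per kilobase in the EC were *Lrp11* with 2461, *Lrp3* with 855 and *Sorcs3* with 635.

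Among 12 ligands, 11 reached the minimum, 1 was past 1.5-fold higher in the PVC and 2 were lower, with a median log2 ratio of 0.01. *Reln*, which encodes Reelin, the ligand of the *Lrp8* and *Vldlr* receptors, had 18785 in the EC against a scaled 5620 in the PVC, 3.34-fold higher in the EC with a log2 ratio of −1.74. Per kilobase, *Reln* stood at 1.51 times *Lrp8* in EC and at 0.495 times in PVC, whereas *Lrp8* and *Vldlr* themselves had log2 ratios of −0.13 and −0.21. Reelin is also a marker of layer 2 cells of the entorhinal cortex. *A2m*, a protease inhibitor that *Lrp1* clears, was 1.87-fold higher in the EC, at a mean of 118. *Bdnf*, the neurotrophin whose precursor binds *Sort1*, was 1.55-fold higher in the PVC. The most abundant ligands per kilobase in the EC were *App*, *Clu* and *Apod*, with log2 ratios of 0.01, −0.16 and −0.05. The row of mouse *Apoe* had 636 in EC and 344 in PVC, a log2 ratio of 0.01. The mice carry human *APOE* in its place and the reads were aligned to the mouse genome, so how much of the human transcript this row counts was not tested.

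Of 15 adaptors and regulators, 1 was past 1.5-fold, and the median log2 ratio was −0.05. It was *Dab2*, a clathrin adaptor that binds NPxY signals, 1.71-fold higher in the EC. *Dab1*, the adaptor of Reelin signaling, had a log2 ratio of −0.14, so that *Reln* over *Dab1* per kilobase was 1.06 in EC and 0.348 in PVC. *Apbb1*, *Mapk8ip2* and *Mapk8ip1* were the highest of this list per kilobase in the EC, with log2 ratios of 0.18, −0.05 and 0.15. Over the 36 of these 37 relatives, ligands and adaptors that reached the minimum, 2 were higher and 3 lower in the PVC past 1.5-fold. This makes 13.9%, near the 12.2% of all genes compared.

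The few layer markers chosen for each region were higher in that region, and the regions also differed in cell type markers. Of 4 markers of cortical layer 4, 3 were higher in the PVC past 1.5-fold, *Rspo1*, *Rorb* and *Whrn*, and all 3 markers of entorhinal layer 2 cells, *Reln*, *Wfs1* and *Calb1*, were higher in the EC. All 7 oligodendrocyte markers (*Mbp*, *Mog*, *Mobp*, *Mag*, *Cnp*, *Ermn* and *Opalin*) were higher in the PVC past 1.5-fold, and their means summed to 32391 in EC and a scaled 83685 in PVC, a 2.58-fold difference. All 8 meningeal fibroblast markers (*Col1a1*, *Col1a2*, *Dcn*, *Lum*, *Slc6a13*, *Igf2*, *Ogn* and *Crabp2*) were higher in the EC, with sums of 13815 and a scaled 5158, a 2.68-fold difference. The 7 neuron markers listed had a median log2 ratio of 0.24 and sums of 336127 in the EC and a scaled 405833 in the PVC, a 1.21-fold difference. No marker of these lists was at 0. The differences of *Sorl1* and *Lrp1b*, higher in the PVC, stand beside the oligodendrocyte and layer 4 markers. The neuron markers were mixed, with 5 higher and 2 lower in the PVC. The differences of *Lrpap1*, *Lrp4*, *Vldlr*, *Dab2* and *A2m*, higher in the EC, stand beside the meningeal and entorhinal layer 2 markers. *Kcnj13*, *Sostdc1* and *Prlr* of the choroid plexus list and *C1ql2* of the dentate gyrus list were also higher in the EC past 1.5-fold. *Ttr* was higher in the PVC, and the other dentate gyrus markers at the minimum lay within 1.5-fold. Of the 8 astrocyte markers, 6 were also higher in the EC, with a median log2 ratio of −0.13. The part of any of these cell types in the differences was not tested.

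**Figure D4:**
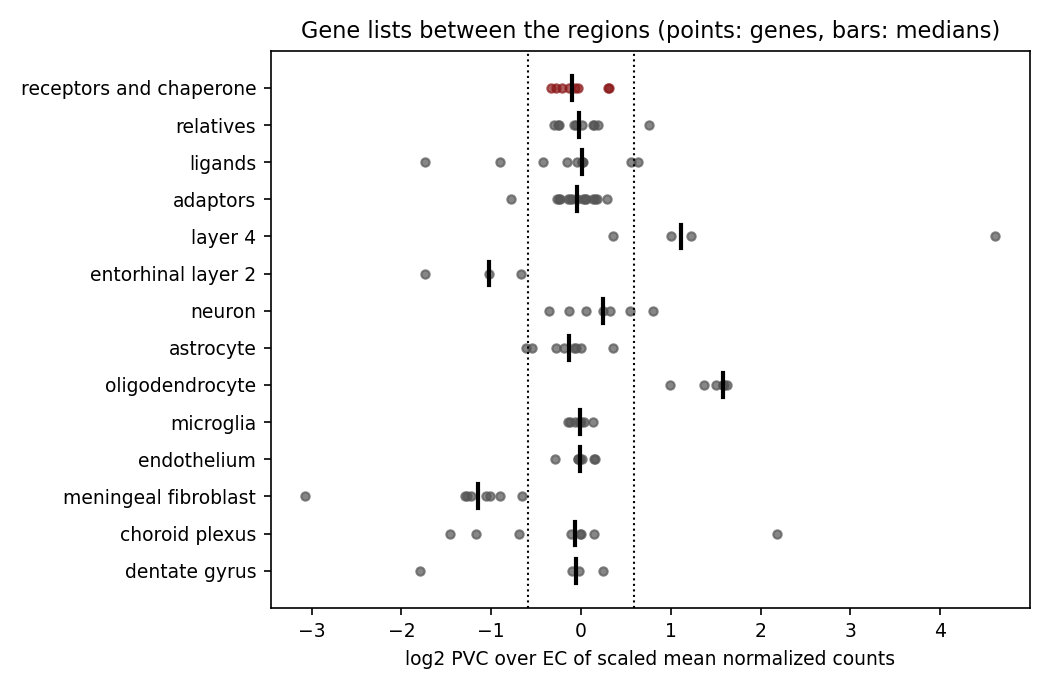
Log2 ratio of PVC over EC on scaled means for each gene at a mean of at least 10 in both regions (points) and the median of each list (bars), with 1.5-fold as dotted lines. The receptors and their chaperone lie between −0.34 and 0.32, whereas the medians of the oligodendrocyte and meningeal fibroblast markers lie at 1.58 and −1.14. The microglia markers, between −0.15 and 0.13, and the endothelial markers, between −0.29 and 0.16, span narrower ranges than the receptors.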

How the data were processed

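Libraries of poly(A)-selected RNA, from a kit that the sources do not describe as keeping strand, were read from one end, and the labels mark 2 EC and 5 PVC libraries as run several times for depth. The authors aligned the reads to mm9 with TopHat2 2.0.6 and Bowtie2 2.0.2.0, counted them per gene with HTSeq on a protein-coding NCBIM37 annotation and normalized each region with DESeq2 1.10.1. The signal used here is the mean normalized count that the authors deposited for each gene and region, over counts divided by size factors. The 5 other columns of each table hold the authors' own comparison of genotypes (fold change, its standard error, statistic and p-values) and were not used. Total counts per library are not analysed here, so no counting interval is given.

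With Python 3.11.15, numpy 2.4.6, pandas 2.3.3 and matplotlib 3.10.9, the PVC means were scaled to the EC by the median ratio over genes at a mean of at least 10 in both regions, and a gene was counted as different past 1.5-fold. This step was run on artificial tables with counting noise only and fewer changed genes than differ here. That run therefore does not show how well the scaling holds for these data. Levels per kilobase used the merged exons of GENCODE vM1 on NCBIM37, a build equal to mm9 but not the annotation the reads were counted on. It gave a length to 95.6% of the genes compared, and a symbol shared by several annotated genes, such as *Dab2*, received none. *Rbfox3*, a neuron marker, was not found under that symbol. Coding sequences were the longest complete one of each symbol. The members and lists were chosen with earlier results of these data known. 1 related receptor and 1 marker gene are not reported here and were left out of the lists. Named are all members and *Apoe*, and of the other lists the genes past 1.5-fold and, for pathway genes, the 3 highest per kilobase in the EC. *Dab1* and the choroid plexus markers under the minimum were added after their values were seen. Alternatives were scaling by the sum of counts, by genes above 0 or at a mean of at least 100, a pseudocount of 1, the longest transcript as length and percentiles among all genes above 0. Scaling by the sum of per-kilobase levels and a limit of 1.2-fold were added after the data were seen.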

Additional observations from a re-analysis of the deposited data

How the results depend on the processing

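No paired analysis was possible because the values are means of a region, with no value of a single mouse, and leaving out a mouse was not possible for the same reason. The count of the 9 members past 1.5-fold was 1, *Lrp2*, under each of the 5 other scalings or pseudocounts, and 5 with a limit of 1.2-fold. The counts of other pathway genes and of cell type markers past 1.5-fold were 5 and 28 under all 3 other scalings run for them. The median log2 ratio of the 9 members was −0.13, and it was −0.15 with scaling by the sum of counts, −0.10 with genes above 0, −0.15 with genes at a mean of at least 100 and −0.17 with the sum of per-kilobase levels. *Sort1*, the nearest to 0, ranged from −0.07 to −0.01 and *Lrp1* from −0.10 to −0.04. The median percentile of the 9 levels per kilobase went from 71.8 in the EC and 66.9 in the PVC to 77.9 and 73.6 with the longest transcript as length, and to 79.8 and 77.4 among all genes above 0. With the longest transcript, *Lrpap1* passed *Lrp1* in the EC and *Sorl1* in the PVC, and the other 7 places in each region were the same. The log2 ratio of the summed choroid plexus markers was 0.57 and turned to −0.42 without *Ttr*.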

Other observations

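In the remaining marker lists at most 1 gene each was past 1.5-fold between the regions. The 8 microglia markers and the 8 endothelial markers lay within 1.5-fold, with median log2 ratios of PVC over EC of −0.02 in each list. Of the 7 neuron markers listed, 1 was past 1.5-fold, *Nefl*, which encodes a neurofilament and was 1.75-fold higher in the PVC, and 3 were higher in the PVC past 1.2-fold and 1 lower. Of the 8 astrocyte markers, 1 was past it, *Gfap*, an intermediate filament gene that was 1.53-fold higher in the EC. *C1ql2*, a marker of the dentate gyrus, was 3.46-fold higher in the EC, while the other 3 markers of that list at the minimum lay between −0.09 and 0.25.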
